A study of Mus musculus with 6 samples.

Results

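The transcripts of 10 interferon-induced antiviral effector genes were followed in colonic mucosa that lacked Tlr2. They are Ifit1, Ifit2, Ifit3, Oas1a, Oas2, Oasl1, Oasl2, Rsad2, Isg15 and Bst2. They were taken for what their products do, as a fixed list of names. Every probe whose accession belongs to 1 of them was looked at, 14 probes in all. Counts, medians and tests rest on the brightest probe of each gene unless stated. All 10 passed the filter on dim probes and stand among 14701 genes tested. The tested samples were colonic mucosa of Tlr2 knockout C57BL/6 mice at 90 postnatal days. They were set against mucosa of wild-type C57BL/6 mice of the same age, and the labels name no treatment for either genotype, no substrain and no construction of the knockout allele. RNA was hybridised to 4 two-colour Agilent arrays, each with 1 knockout and 1 wild-type sample, named here as pairs 1, 2, 4 and 5 after the knockout sample's number. The knockout sample carried Cy3 in pairs 1 and 2 and Cy5 in pairs 4 and 5. The methylation arrays of the same study are not used here.

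Type I and type III interferons bind their receptors and activate the kinases Jak1 and Tyk2. These switch on a transcription factor complex that includes Stat2 and Irf9 and binds the interferon-stimulated response element, or ISRE, in the promoters of many genes. The products of those genes block viruses at many steps of their life cycle. In the gut, type III interferon acts mainly on epithelial cells, and Tlr2 is a cell-surface receptor for bacterial lipoproteins.

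Promoter sequences are shown because Stat2 and Irf9 are known to act through them and the 10 transcripts differed in their ratios. The sequences are those of RefSeq on GRCm38.p6, 200 bases up to the annotated start site, 5′ to 3′ on the gene's strand, with each match to the ISRE core in capitals. The core was taken as GAAA, any 2 bases and GAAA again, sought on both strands, so that TTTC, any 2 bases and TTTC also counts, and matches may overlap. Ifit1 (chr19:34640689-34640888, plus strand), Isg15 (chr4:156200819-156201018, minus strand) and Rsad2 (chr12:26456453-26456652, minus strand) had ratios well above 0 and hold matches. Bst2 (chr8:71537473-71537672, minus strand) holds matches and had a mean ratio near 0. Oasl2 (chr5:114896734-114896933, plus strand) holds none and had the highest mean ratio of the 10.
Ifit1: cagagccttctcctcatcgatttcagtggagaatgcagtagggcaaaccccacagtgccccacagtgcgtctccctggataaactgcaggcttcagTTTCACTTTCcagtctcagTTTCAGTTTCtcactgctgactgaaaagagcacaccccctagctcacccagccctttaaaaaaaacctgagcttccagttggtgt
Isg15: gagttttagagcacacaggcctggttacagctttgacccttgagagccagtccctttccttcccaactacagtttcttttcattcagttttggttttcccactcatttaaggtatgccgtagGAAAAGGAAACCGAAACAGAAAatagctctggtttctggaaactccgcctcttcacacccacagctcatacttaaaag
Rsad2: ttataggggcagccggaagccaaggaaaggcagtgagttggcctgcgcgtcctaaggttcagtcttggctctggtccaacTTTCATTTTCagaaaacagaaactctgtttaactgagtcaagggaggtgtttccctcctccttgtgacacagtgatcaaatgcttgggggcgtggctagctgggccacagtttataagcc
Bst2: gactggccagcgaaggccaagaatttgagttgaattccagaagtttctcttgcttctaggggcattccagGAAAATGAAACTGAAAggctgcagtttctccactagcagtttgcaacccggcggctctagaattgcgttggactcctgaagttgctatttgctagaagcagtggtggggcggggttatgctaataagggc
Oasl2: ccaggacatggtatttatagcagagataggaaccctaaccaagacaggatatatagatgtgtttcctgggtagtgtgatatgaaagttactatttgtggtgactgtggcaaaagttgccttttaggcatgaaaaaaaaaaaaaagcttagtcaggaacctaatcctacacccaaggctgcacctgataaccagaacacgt

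Windows of 300 bases, 250 before the start site and 50 after it, were at hand for 9 of the 10 genes, with 2 windows for Ifit2. The ISRE core was found in 6 of the 9 genes, namely Ifit1, Ifit3, Oas1a, Rsad2, Isg15 and Bst2. Over all genes it was found in 3.99% of 27025. The match nearest to the start site was that of Oas1a, whose 2 overlapping matches begin at positions -20 and -14 from it, and the farthest was the first match of Ifit3, at -156. Isg15 holds 3 overlapping matches. Ifit2, Oasl1 and Oasl2 hold none in these windows, which says only that these letters are not there. The gamma-activated sequence TTCNNNGAA, which reads the same on both strands, was found in 3 of the 9 genes (Ifit2, Oas1a and Bst2) and in 9.55% of all genes. In Bst2 it overlaps the first ISRE match.

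**Figure D1:**
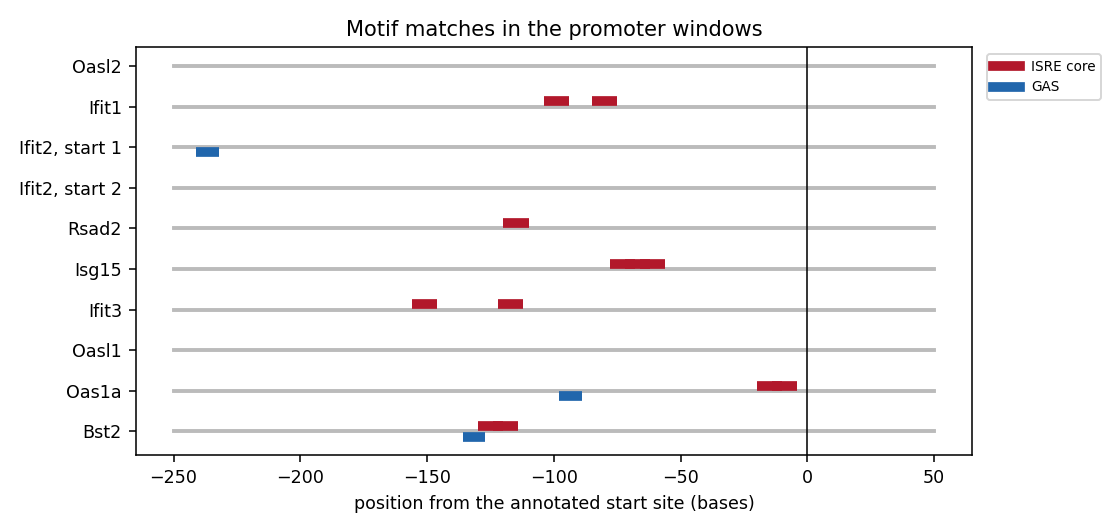
Matches to the ISRE core (red) and to the gamma-activated sequence (blue) in the promoter windows of 9 genes, ordered by mean ratio from Oasl2 at the top to Bst2 at the bottom. The x axis is the distance in bases from the annotated start site. The 6 genes with an ISRE match include Bst2, and the top gene, Oasl2, has none.

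Facts of the arrays bear on every value below. Each array held 43379 spots other than controls, of which 67.7% to 71.9% were well above background in the knockout channel and 63.3% to 76.5% in the wild-type channel. Tlr2 itself was at a mean log2 ratio of -4.86 ± 0.643 (SD, n = 4) and was negative on all 4 arrays. Over all genes, the log2 ratios of pair 1 correlated with those of the other pairs at Pearson's r between -0.42 and -0.10, whereas pairs 2, 4 and 5 correlated with each other at 0.42 to 0.57. No label says that each sample is a separate animal, so p-values measure the spread between these samples.

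As a group, 8 of the 10 transcripts were higher in the knockout sample on all 4 arrays, against 7.18% of all genes tested. The median of the 10 mean log2 ratios was 1.10, against -0.01 over all genes. Over 1.6-fold on at least 2 arrays with no array contradicting, which is the submitters' rule, was reached upward by 7 of 10 (Ifit1, Ifit2, Ifit3, Oas2, Oasl2, Rsad2 and Isg15) and by 0.762% of all genes. By their brightest probes, Ifit2, Oasl2 and Rsad2 were over 1.6-fold on every array, as were 0.0884% of all genes. The other probes of Ifit2, Oas2 and Rsad2 did not pass the submitters' rule by themselves. Averaging all probes of each gene left 7 of the 10 past it. With median centring in place of loess, the rule gave 45 genes higher and 293 lower over the whole array, against 112 and 105 here, and still 7 of the 10 higher. Oas1a was positive on 4 arrays with smaller ratios, Oasl1 was positive on 3, and Bst2 was positive on 2 and negative on 2.

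None of the 10 passed limma with Benjamini-Hochberg adjustment over all genes at 0.05, and neither did any other gene, 0% of those tested being higher and 0 lower. The smallest adjusted p among the 10 was 0.594, shared by 8 of them. At an unadjusted p under 0.05, 8 of the 10 were higher, against 3.86% of all genes. That background depends on the pairs: in either direction, 1193 of 14701 genes were under 0.05 with all pairs, 3645 of 14211 without pair 1, 2042 of 14186 without pair 2, 300 of 14648 without pair 4 and 336 of 14643 without pair 5. Of the 10 effectors, 7 or 8 were under 0.05 in each of these. Ratios are given as log2 of knockout over wild type, mean ± SD over 4 arrays.

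**Figure D2:**
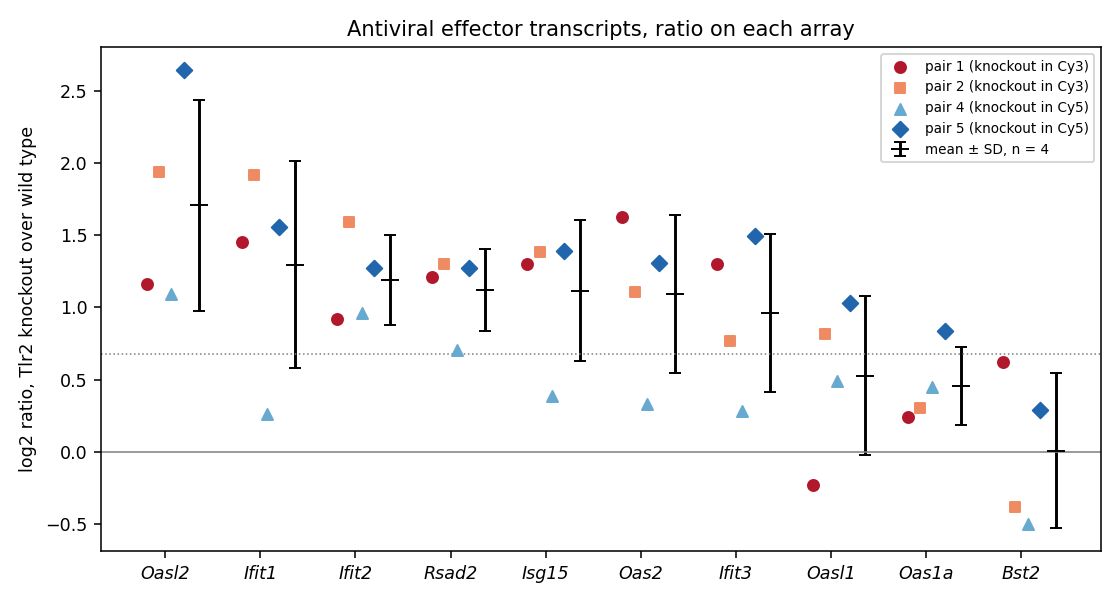
Log2 ratio of Tlr2 knockout over wild type on each of 4 arrays for the 10 transcripts, with the mean ± SD in black. The solid line marks no difference and the dotted line 1.6-fold. In 7 of 10 transcripts the lowest point is pair 4, and Bst2 lies on both sides of 0.

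The Ifit genes encode tetratricopeptide-repeat proteins that bind foreign RNA or the translation machinery and lie side by side on chromosome 19. Ifit1, which binds viral RNA caps that lack methylation, had normalised log2 intensities of 11.65, 11.27, 9.89 and 11.79 in the knockout samples of pairs 1, 2, 4 and 5, against 10.20, 9.36, 9.63 and 10.23 in the wild-type samples. The knockout sample of pair 4 lay among the wild-type values and the other knockout samples lay above all of them. On average the ratio was 1.30 ± 0.718, a 2.46-fold difference, with ratios of 1.45, 1.91, 0.26 and 1.56.

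Ifit2, which restricts viral replication and can promote cell death, was dim. Its spot stood 106, 183, 170 and 516 intensity units above local background in the knockout channel, against 58, 32, 47 and 80 in the wild-type channel. The normalised log2 levels were 7.62, 8.04, 7.95 and 8.88 in knockout samples, against 6.70, 6.45, 6.98 and 7.61 in wild-type samples. The groups did not overlap, but the lowest knockout sample (7.62, pair 1) and the highest wild-type sample (7.61, pair 5) were almost level. Its mean ratio of 1.19 ± 0.312, or 2.28-fold, was positive in every pair, and its size depended on the background step. It was 3.48-fold with a normexp offset of 0 in place of 50, and 5.08-fold with Agilent's processed signals. The authors' deposited table lists an average of 4.54 for Ifit2. A second Ifit2 probe, also dim, gave ratios of 0.24, 0.61, 0.29 and 0.56.

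Ifit3, whose human counterpart stabilises the binding of IFIT1 to RNA, had levels of 10.81, 10.03, 9.87 and 11.35 in knockout samples, against 9.51, 9.26, 9.59 and 9.85 in wild-type samples. The groups did not overlap, although the lowest knockout value, in pair 4, was close to the highest wild-type value. Its mean ratio was 0.96 ± 0.546. Ifit3 and its neighbour Ifit3b are near copies that could share probe signal, so the value of either is uncertain on that point.

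The Oas enzymes sense double-stranded RNA and make oligoadenylates, which serve as a signal that leads to the breakdown of RNA. Oas1a, an active synthetase, had levels of 12.93, 12.85, 12.83 and 12.79 in knockout samples, against 12.69, 12.55, 12.38 and 11.95 in wild-type samples. The groups did not overlap, and the knockout samples differed little from each other (SD 0.0610) while the wild-type samples were more spread (SD 0.321). Its mean ratio was 0.46 ± 0.267, or 1.37-fold. Other Oas1 genes are close relatives, and shared probe signal was not examined.

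Oas2, a larger synthetase with repeated catalytic units, had levels of 8.59, 8.27, 7.57 and 8.92 in knockout samples, against 6.97, 7.16, 7.24 and 7.61 in wild-type samples. The knockout sample of pair 4 lay just below the highest wild-type sample, which was that of pair 5. Oas2 had a mean ratio of 1.09 ± 0.550, or 2.13-fold, and 3.50-fold with Agilent's processed signals. The authors' deposited table gives an average of 3.91 for Oas2. The second Oas2 probe cleared background on 2 of 4 arrays for the knockout and on 0 of 4 for the wild type, so no fold is given for it.

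Oasl1 and Oasl2 carry ubiquitin-like domains behind the Oas fold, and are adjacent on chromosome 5. Oasl2 had levels of 12.35, 12.68, 12.12 and 13.54 in knockout samples, against 11.19, 10.74, 11.03 and 10.90 in wild-type samples. Every knockout sample lay above every wild-type sample. Oasl2 had a mean ratio of 1.71 ± 0.730, or 3.27-fold (95% interval of the log2 ratio 0.84 to 2.57), rank 4 from the top among all genes tested. The knockout sample of pair 5 set the width of that spread, with a ratio of 2.64 against 1.10 to 1.93 for the other pairs.

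Oasl1, which in mice holds back the translation of Irf7 messenger RNA, had levels of 12.31, 12.35, 12.45 and 13.08 in knockout samples, against 12.54, 11.54, 11.96 and 12.05 in wild-type samples. The groups overlapped, and in pair 1 the knockout sample was the lower. The mean ratio was 0.53 ± 0.551, with a 95% interval from -0.09 to 1.14. Its limma adjusted p was 0.624.

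Rsad2 encodes viperin, a radical enzyme that makes a chain-terminating nucleotide. The brightest of its 3 probes had levels of 10.34, 9.55, 9.85 and 10.87 in knockout samples, against 9.13, 8.25, 9.15 and 9.60 in wild-type samples. The groups overlapped only through the knockout sample of pair 2, whose partner was also the lowest wild-type sample. Its mean ratio was 1.12 ± 0.282, or 2.18-fold, and the limma adjusted p was 0.594. The other probes gave -0.31, 1.11, 0.61 and 1.03, and -0.16, 1.22, 0.62 and 1.07. All 3 probes were positive in pairs 2, 4 and 5, and in pair 1 the brightest was at 1.21 while the other probes were below 0.

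Isg15 encodes a ubiquitin-like protein that is joined to newly made viral and host proteins. Its levels were 10.20, 10.20, 9.64 and 11.13 in knockout samples, against 8.90, 8.81, 9.26 and 9.73 in wild-type samples. The knockout sample of pair 4 lay below the wild-type sample of pair 5, and the other knockout samples lay above all wild-type samples. The mean ratio was 1.12 ± 0.490, or 2.17-fold, with ratios of 1.30, 1.38, 0.38 and 1.39.

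Bst2 encodes tetherin, which holds budding virions at the cell surface, and is also a surface marker of mouse plasmacytoid dendritic cells and plasma cells. Its levels were 10.96, 10.83, 10.75 and 11.09 in knockout samples, against 10.34, 11.21, 11.24 and 10.80 in wild-type samples. The knockout samples lay within the range of the wild-type samples. The mean ratio was 0.0086 ± 0.537, with a 95% interval from -0.65 to 0.67 (limma adjusted p = 0.998).

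**Figure D3:**
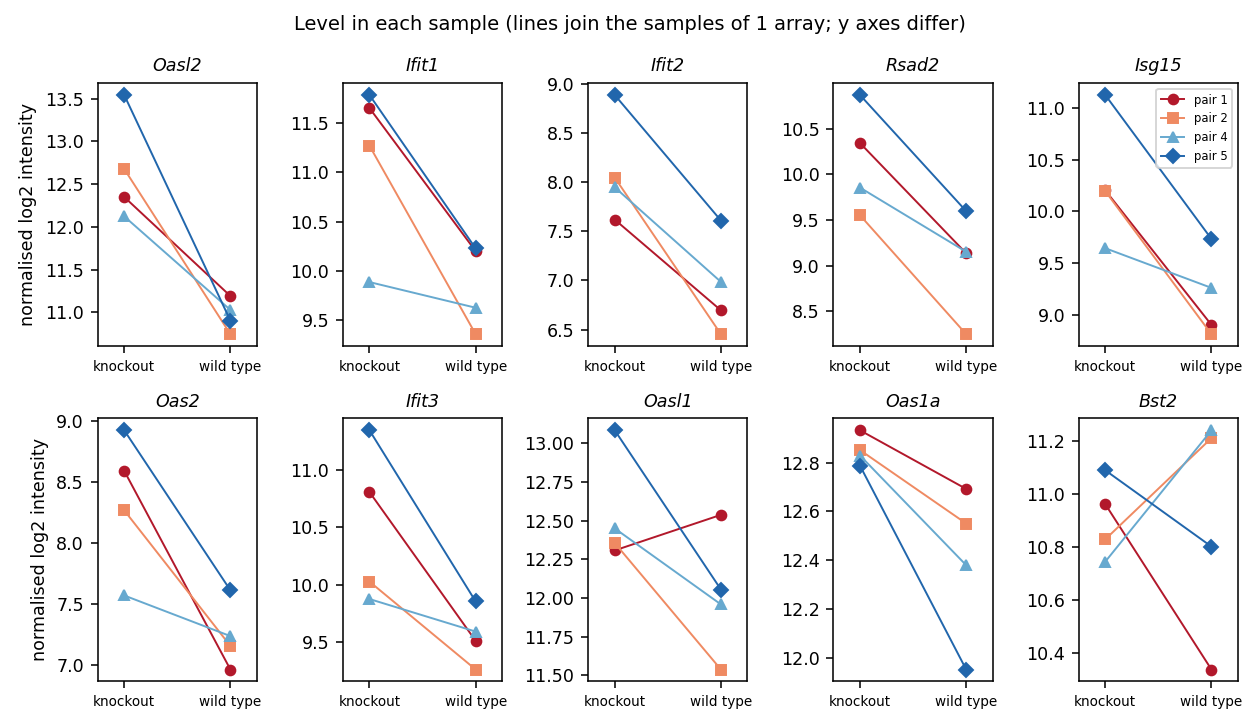
Normalised log2 intensity of the 10 transcripts in each of 4 knockout (left) and 4 wild-type (right) samples, a line joining the samples of 1 array, with a y axis of its own for each gene. Levels of different genes cannot be compared. All lines of Oasl2, Ifit2, Ifit3 and Oas1a start above the highest wild-type point, and those of Bst2 cross.

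Knockout samples all lay above wild-type samples for 4 of the 10 transcripts (Ifit2, Ifit3, Oas1a and Oasl2), against 2.22% of all genes. In the order of mean ratios, from Oasl2 through Ifit1, Ifit2, Rsad2, Isg15, Oas2, Ifit3, Oasl1 and Oas1a to Bst2, no neighbours differed by more than the larger of their SDs. The widest gaps were 0.45 between Oas1a and Bst2, and 0.43 between Ifit3 and Oasl1. In bulk mucosa, fewer or more cells of a type and less or more RNA per cell cannot be told apart.

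The pairs differed among themselves. The median log2 ratio of the 10 was 1.18, 1.21, 0.42 and 1.29 in pairs 1, 2, 4 and 5. Over all genes tested the medians were -0.026, -0.017, -0.0015 and 0.0046. Shares of all genes were not counted pair by pair or by dye, so the counts that follow have no background beside them. Pair 4 gave the lowest ratio for 7 of the 10 and the highest for 0, and 3 of the 10 were over 1.6-fold there, against 9 in pair 5, 8 in pair 2 and 7 in pair 1. Pair 1, whose ratios over all genes ran against those of the other pairs, was positive for 9 of the 10 by their brightest probes. The other Rsad2 probes were below 0 in that pair, at -0.31 and -0.16. By dye, 9 of the 10 had a positive mean ratio both where the knockout carried Cy3 and where it carried Cy5. The means were 1.55 and 1.87 for Oasl2, 1.68 and 0.91 for Ifit1, 1.26 and 1.12 for Ifit2, and 0.12 and -0.10 for Bst2, with Cy3 given before Cy5.

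Relatives of the Ifit and Oas genes outside the 10 were measured for 10 of 11 genes. By the submitters' rule 2 were higher, against 0.762% of all genes, and 0 lower. On all 4 arrays 4 were positive, against 7.18% of all genes. None passed limma, and the median was 0.23. Ifit3b was at 0.76 ± 0.216 (log2), with knockout samples all above wild-type samples. The authors' deposited table lists it under its older name, at an average linear ratio of 2.66. Its spot was dim, at 55.5 to 114.5 intensity units above local background in the wild-type channel, so the size of its ratio is uncertain. Oas1f was at 0.63 ± 0.259, and the authors list it at an average linear ratio of 1.58. Ifit1bl1 was at 0.54 ± 0.642 and Oas3, a large synthetase, at 0.28 ± 0.501. Both were below 0 in pair 1, at -0.32 for Ifit1bl1 and at -0.40 for Oas3, and above 0 in the other pairs. The second Oas3 probe was positive in every pair, with ratios of 0.13, 1.06, 0.26 and 0.68 in pairs 1, 2, 4 and 5 and a mean of 0.53 ± 0.423, and it passed the submitters' rule where the brighter probe did not. The second Ifit1bl1 probe was also below 0 in pair 1, at -0.66, with a mean of 0.58 ± 0.831.

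The other relatives had mean ratios under 0.25. Oas1c was at 0.24 ± 0.579, Oas1b at 0.21 ± 0.166, Oas1g at 0.16 ± 0.0723, Oas1e at 0.10 ± 0.120, Oas1d at 0.08 ± 0.209 and Ifit1bl2 at 0.06 ± 0.0668. The authors' deposited table lists Oas1b at an average linear ratio of 1.49. Its spot was dim, at 73 to 128 intensity units above local background in the knockout channel and 56 to 122 in the wild-type channel. The size of the Oas1b ratio is therefore uncertain. In the wild-type channel Ifit1bl2 was well above background on 2 arrays and Oas1g on 3. Oas1h was well above background on no array and was not tested.

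Transcripts of proteins that work with the effectors were measured for 4 of 5 genes reported here. By the submitters' rule 3 were higher, against 0.762% of all genes. Usp18, the protease that removes Isg15 from proteins and damps the interferon receptor, was at 1.34 ± 0.543, with knockout samples all above wild-type samples. Ube2l6, the conjugating enzyme for Isg15, was at 0.59 ± 0.417, with 0.01 in pair 1 and 0.67 to 1.00 in the other pairs, and Uba7, its activating enzyme, at 0.23 ± 0.316. Cmpk2, a mitochondrial nucleotide kinase encoded next to Rsad2, was at 0.70 ± 0.389, and its second probe at 0.15 ± 0.347. None passed limma over all genes.

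Over all genes, 0.762% were higher by the submitters' rule, 7.18% were positive on all 4 arrays and 1237 of 14701 were negative on all 4. Among 30 other antiviral effectors measured, 6 were higher and 0 lower by that rule. Of these 30, 12 were positive on all 4 arrays and 2 negative, none passed limma, and the median was 0.21. The smallest unadjusted limma p-values were those of Ddx60, a helicase, at 1.86 ± 0.864, of Eif2ak2, the kinase PKR that halts translation, at 0.60 ± 0.476, of Rtp4 at 1.09 ± 0.624 and of Ifi44 at 0.80 ± 0.348. Ifitm3, which blocks viral entry and is named after its values were seen, had the lowest mean of the list at -0.66 ± 1.34. Its ratio was 1.35 in pair 1, opposite in sign to -1.38, -1.32 and -1.29 in pairs 2, 4 and 5.

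Among 13 interferon receptor and signalling genes measured and reported here, 0 were higher and 0 lower by the submitters' rule, none passed limma, and the median was 0.09. Irf9, the DNA-binding subunit of the complex, was at 0.48 ± 0.239 and positive on all 4 arrays. Its partner Stat2 was at 0.24 ± 0.394, the receptor-associated kinase Jak2 at 0.32 ± 0.599 and the transcription factor Irf1 at -0.19 ± 0.178. Irf1 was negative on all 4 arrays, and Stat2 and Jak2 lay on both sides of 0. Of 10 interferon genes with a probe, 5 were well above background on enough arrays to be tested. Their mean ratios lay between -0.24 and -0.04, and none passed the submitters' rule. All 5 were dim, with mean log2 intensities of 6.49 to 7.25, so the size of these ratios is uncertain. Ifnb1, the main early type I interferon, and Ifng were not above the filter.

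**Figure D4:**
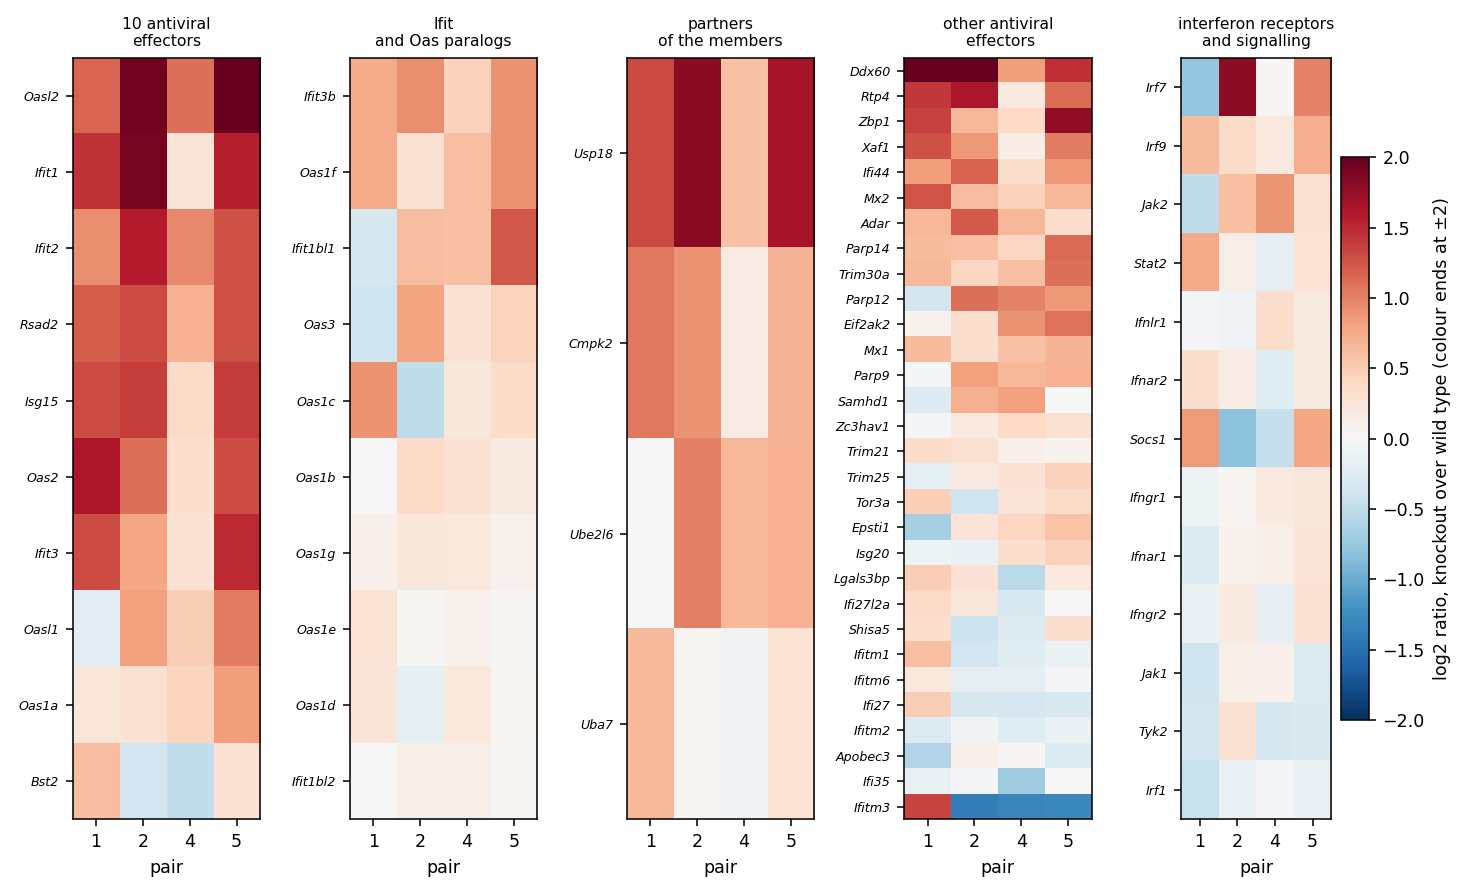
Log2 ratio of knockout over wild type in each pair for the 10 effectors, their relatives, their partners, other antiviral effectors and interferon signalling genes, each list ordered by mean ratio. Red is higher in the knockout and blue lower, and the colour ends at ±2. Usp18 and Ddx60 are as red as the upper effectors, whereas most signalling genes are pale.

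The tissue label was checked against markers. The 9 measured markers of colonic epithelium were well above background on all arrays, and 7 of these had a saturated spot. Their median ratio was 0.09, with medians of 0.34, 0.47, -0.62 and -0.47 in pairs 1, 2, 4 and 5. Because of the saturated spots these ratios are not exact, and they do not measure the epithelial share of the samples. Markers of other cells were measured beside the effectors. The median was -0.10 over 6 of plasmacytoid dendritic cells, from -0.57 for Ly6d to 0.12 for Klk1. The Klk1 spot was saturated on at least 1 array, so that its ratio is not exact. Its mean log2 intensity was 15.65, near those of the epithelial markers Vil1 (15.76) and Epcam (15.53). Ly6d was at -1.93 in pair 2 and between -0.32 and 0.22 in the other pairs. Whether Klk1 and Ly6d report these cells in mucosa was not tested. The defining marker Siglech was not above the filter. The median was -0.13 over 5 pan-leukocyte markers, -0.18 over 8 of macrophages and monocytes, -0.16 over 6 of B and plasma cells (0.32 in pair 1 and -0.86, -0.23 and -0.10 in pairs 2, 4 and 5), 0.06 over 5 of endothelium and -0.35 over 5 of smooth muscle. For T and NK cells the median was -0.40 over 9 markers, 3 of which passed the submitters' rule downward, with Gzma lowest at -1.46 ± 0.797. Over all genes, 105 of 14701 passed that rule downward.

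Adipocyte markers had a median of 0.74 over 7, with medians of -0.25, 0.0040, 0.88 and 2.66 in pairs 1, 2, 4 and 5, and 0 of 7 passed the submitters' rule. The effectors' medians in those pairs were 1.18, 1.21, 0.42 and 1.29. Pan-leukocyte markers had a median of 0.96 in pair 1 and of -0.31, -0.32 and -0.07 in pairs 2, 4 and 5. The part of any of these cells in the effectors' ratios was not tested.

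The genes outside all lists whose 4 ratios lay nearest to the effectors' per-array medians were Slfn4 at a root mean square distance of 0.177 (log2), Apol9b at 0.276, Homer2 at 0.312, Tef at 0.334 and Per1 at 0.335. Slfn4 belongs to the Schlafen family, and its mean ratio was 0.96 ± 0.278. Apol9b, an apolipoprotein L gene, was at 1.26 ± 0.447. Homer2, a scaffold protein, was at 1.02 ± 0.246. The transcription factor Tef and the clock repressor Per1 were at 0.95 ± 0.451 and 1.17 ± 0.231. The likeness rests on 4 arrays.

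The authors' deposited tables list the 7 effectors that pass their rule here and none of Oas1a, Oasl1 and Bst2. Their average linear ratios were 2.90 for Ifit1, 2.26 for Ifit3, 3.90 for Oasl2, 2.41 for Rsad2 and 2.55 for Isg15, beside the values for Ifit2 and Oas2 above. Their 4 array columns are numbered and could not be tied to the pairs by name.

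**Figure D5:**
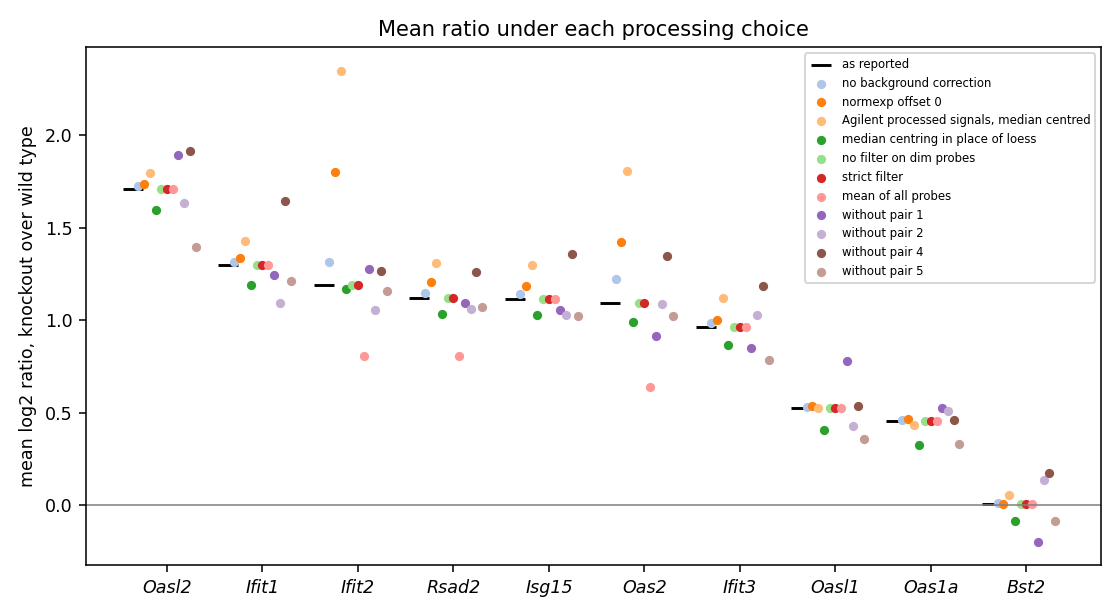
Mean log2 ratio of knockout over wild type for the 10 transcripts as reported (black bar) and under other processing choices and with each pair left out (dots). The dots of Ifit2 and Oas2, the dim probes, spread most, and those of Bst2 lie on both sides of 0.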

How the data were processed

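Each scanner file gives per spot and channel a median intensity and a local background, which Agilent Feature Extraction produced according to the deposited header (10.5.1.1 there, 8.5.1.1 in the submitters' processing notes). The authors also deposited hit lists giving a linear ratio for each gene and array. No source used here states how those ratios were normalised.

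The median signals went through normexp background correction (offset 50) and within-array loess (limma 3.58.1, R 4.3.3), leaving out controls and outlier spots. RefSeq accessions (GRCm38.p6) named 25097 probes, and the deposited lists 17 others. A probe needed signal well above background on 2 arrays of a genotype, and the brightest probe represented its gene. limma's lmFit and eBayes, with a dye term, tested 14701 genes, adjusted by Benjamini-Hochberg at 0.05, after being tested on simulated data. Channel levels followed Aquantile normalisation. Named are the 10 genes, their listed relatives and partners, up to 4 genes by smallest p of 2 further lists, each marker list's extremes, and the 5 genes with the nearest ratios. Of the listed genes 2 are not reported here and are left out of the counts and medians of their lists. The genes, lists and tests were chosen with earlier results of these data known. Alternatives varied background, normalisation, dye term, filter, probe choice and pairs. The number of arrays limits the precision.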

Additional observations from a re-analysis of the deposited data

Results flagged for a closer look

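Of 76 sets of 4 values looked at, 3 held a value far from the others. Chance alone gives such a value in about 1 set in 20. All were the value of pair 4. The Isg15 ratio was 0.38 there (log2), against 1.30 to 1.39 in the other pairs. The Rsad2 ratio was 0.70 there, against 1.21 to 1.30. The median over the 10 effectors was 0.42 there, against 1.18 to 1.29. The cause was not tested.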

How the results depend on the processing

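Across 12 alternatives, the mean ratio of 9 of the 10 effectors stayed positive and the lowest limma adjusted p of any of the 10 was 0.112, without pair 1. The number of effectors positive on every array was 7 to 9, the number past the submitters' rule 7 or 8, and their median log2 ratio 0.81 to 1.30. The 9 and the 8 came without pair 1, where only 3 arrays remained and 3387 of 14211 genes were positive on each. Over all genes, 252 of 14701 were positive on every array with median centring, against 1056 as reported. Bst2 changed sign under 3 alternatives, to -0.086 with median centring in place of loess, and to -0.197 without pair 1 and -0.085 without pair 5. Leaving out each pair in turn gave Bst2 a mean between -0.197 and 0.177. Calls over all genes moved more. The submitters' rule kept 112 genes higher and 105 lower as reported, 45 and 293 with median centring, 290 and 269 with processed signals, and 387 and 494 without pair 1. With offset 0 it kept 182 and 157. Limma called 0 genes as reported, 1 higher and 3 lower with offset 0, and 0 higher and 4 lower with processed signals. Genes at an unadjusted p under 0.05 numbered 300 without pair 4 to 3645 without pair 1, against 1193 as reported, and 782 with median centring. The cause was not tested. Dim probes limit the size of the Ifit2 and Oas2 ratios. The comparison of knockout with wild type is itself paired, since each array gives 1 ratio of 1 knockout to 1 wild-type sample. No paired analysis was possible because, beyond that, the numbers shared in the labels link expression to methylation arrays, which measure different things.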
